A study of Equus caballus with 6 samples.

Results

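Sperm can make energy for movement by glycolysis, the breakdown of glucose to pyruvate. How far stallion sperm rely on it was not measured here. Male germ cells carry their own versions of several enzymes of this route. Some of these germ cell isoforms come from separate genes that are switched on in meiotic and later cells, where the X-linked somatic copies of the same enzymes fall silent. Others sit beside a somatic gene, so that tissue of the testis holds a mixture of isoforms from germ cells, Sertoli cells and interstitial cells, and Sertoli cells supply germ cells with lactate.

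The genes described are 10 enzymes of glycolysis and of the steps that use pyruvate, taken as 5 germ cell isoforms (GAPDHS, PGK2, LDHC, LDHAL6B and PDHA2) and 5 others (LDHA, LDHB, HK1, ALDOA and PGAM2). A spot counted as a member where the platform's gene table gives it exactly 1 of these symbols, which held for 10 of the 53423 gene probes of the array. The 5 germ cell isoforms had 1 spot each. HK1 and LDHA had 2 spots each and PGAM2 had 1. LDHB and ALDOA were listed only on probes that also carry other gene names, so neither has a value here and 8 of the 10 genes were measured. PGAM2 and HK1 are not purely somatic, since testis is known to express PGAM2 along with muscle and germ cells make transcript forms of HK1 of their own. The group of others is therefore a comparison by name of the gene, not by cell of origin. RefSeq's table of horse genes (assembly TB-T2T) matched 9 of the 10 symbols, all but LDHAL6B. In that table LDHC is the coding gene next to LDHA.

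The material was testicular parenchyma, the tubules that make sperm with the interstitial tissue around them, from 6 adult stallions given hay and horse feed and accustomed to the clinic for 10 days. Dexamethasone, a synthetic glucocorticoid, was injected intravenously at 0.1 mg/kg in 3 stallions, and 3 control stallions received the same volume of saline. Testes were taken 12 h later. RNA of each animal was read on 1 human array, so horse transcripts were measured by probes made for human ones, and the match between probe and horse sequence was not looked at. A low signal therefore does not show a low transcript level, and the level of a probe cannot be set against that of another.

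The arrays had median spot intensities of 72.6 to 79.4 over a median background of 47 to 50, and 42.5% to 47.8% of gene probes were above background on each. Both lowest values were those of dexamethasone replicate 2. That array also had the most spots flagged C, I or P, 1189 against 320 to 807 on the others. Whether this bears on its member values was not tested. The normalised arrays correlated across probes at 0.98 to 0.99 over the 15 pairs. Cell type markers fixed for this tissue were tested for 6 of 10 spermatocyte genes and 7 of 12 spermatid genes. The same held for 8 of 10 Sertoli cell genes, 6 of 7 Leydig cell genes and 4 of 7 striated muscle genes. Of all probes with a single gene name, 51.7% were above background on at least 3 arrays. These counts therefore do not show that transcripts of a given cell type were read. Among the spermatid markers, the probes of TNP1 and PRM2 did not qualify for the test. In whole tissue, fewer cells of a type and less RNA per cell cannot be told apart.

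Of the germ cell isoforms, GAPDHS and LDHC were above background on all 6 arrays, while PGK2, PDHA2 and LDHAL6B were above background on none. Above background means that the scanner file does not mark the spot as low, which falls at a signal strength of 1, the ratio of the spot mean to the noise of that spot. Of the 5 other spots, both LDHA spots and the PGAM2 spot were above background on all 6 arrays, 1 HK1 spot on 5 and the other HK1 spot on 1. That makes 2 of 5 germ cell spots and 4 of 5 other spots above background on at least 3 arrays, which 51.7% of the 23472 probes with a single gene name also reached. With 5 spots on each side, no test of this difference in detection was made.

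**Figure D1:**
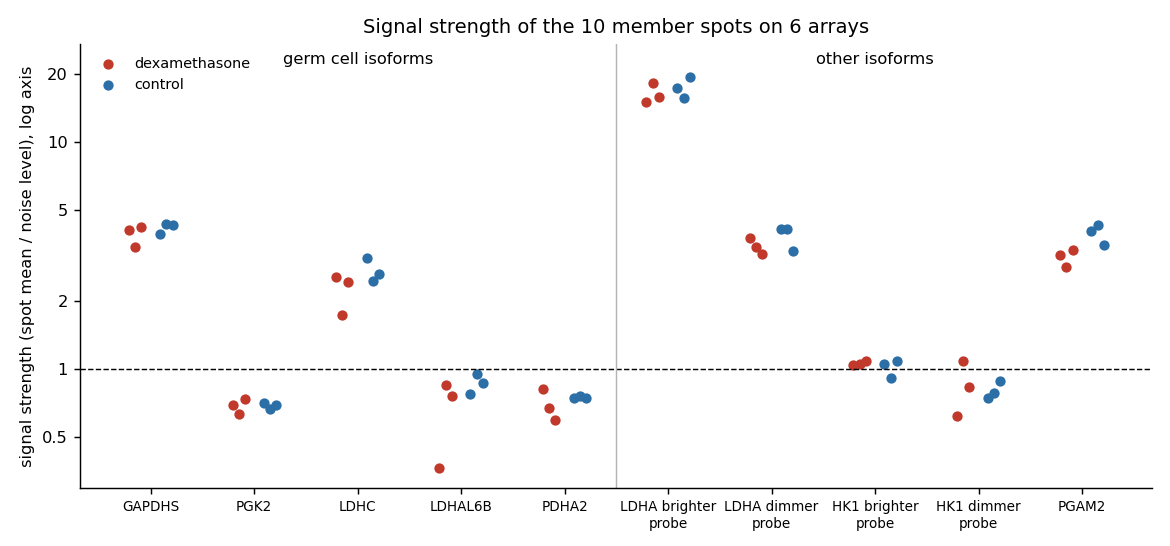
Signal strength, the ratio of spot mean to spot noise, of the 10 member spots on a log axis, with 1 point per stallion for dexamethasone (red) and saline control (blue) and a dashed line at 1. GAPDHS, LDHC, both LDHA probes and PGAM2 lie above the line on all 6 arrays, and PGK2, LDHAL6B and PDHA2 lie below it on all 6. The lowest LDHAL6B point is a spot with a quality flag that was treated as missing.

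PGK2, the phosphoglycerate kinase of germ cells, was read at spot means of 55.8, 51.5 and 56.7 in the dexamethasone stallions over local backgrounds of 46, 48 and 47. In the control stallions its spot means were 59.2, 55.3 and 71.4 over backgrounds of 49, 52 and 56. The spot thus stood at most 15.4 intensity units above its surroundings. PDHA2, the germ cell form of the alpha subunit of pyruvate dehydrogenase, had spot means of 64.1, 57.0 and 53.9 with dexamethasone and 60.8, 62.6 and 67.5 with saline, and its signal strength stayed between 0.60 and 0.81. LDHAL6B, a lactate dehydrogenase-like gene expressed in testis, had signal strengths of 0.85 and 0.76 in the 2 usable dexamethasone spots and 0.78, 0.95 and 0.87 in the controls. None of these 3 spots was above background in either group, so no fold between the groups is given for them.

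GAPDHS, the glyceraldehyde-3-phosphate dehydrogenase of spermatids and sperm, had log2 levels of 8.49, 8.27 and 8.55 in the dexamethasone stallions and 8.24, 8.39 and 8.46 in the control stallions. The highest and the second highest value came from treated animals, but dexamethasone replicate 2 lay below control replicates 2 and 3, so the groups overlapped. The means were 8.44 ± 0.15 and 8.36 ± 0.11 (SD, n = 3 each). The difference of 0.07 ± 0.10 (log2, SE) had a 95% interval from -0.16 to 0.30 and did not pass limma's test over all probes (adjusted p = 0.999). Without control replicate 1 the difference was 0.010. Without dexamethasone replicate 2, the only treated stallion below any control, it was 0.15.

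LDHC, the lactate dehydrogenase found in germ cells and sperm, stood at 7.60, 7.38 and 7.72 with dexamethasone and at 7.82, 7.58 and 7.73 with saline on the log2 scale. Dexamethasone replicate 2 was the lowest and control replicate 1 the highest of the 6, and the remaining 4 values lay between 7.58 and 7.73 in mixed order. Means were 7.57 ± 0.18 and 7.71 ± 0.12 (SD, n = 3 each). LDHC had the largest difference of the tested members, at -0.14 ± 0.11 (log2, SE), with an interval from -0.39 to 0.10, and limma's adjusted p was 0.999. Without dexamethasone replicate 2 the difference was -0.05, and without dexamethasone replicate 3 it was -0.22.

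**Figure D2:**
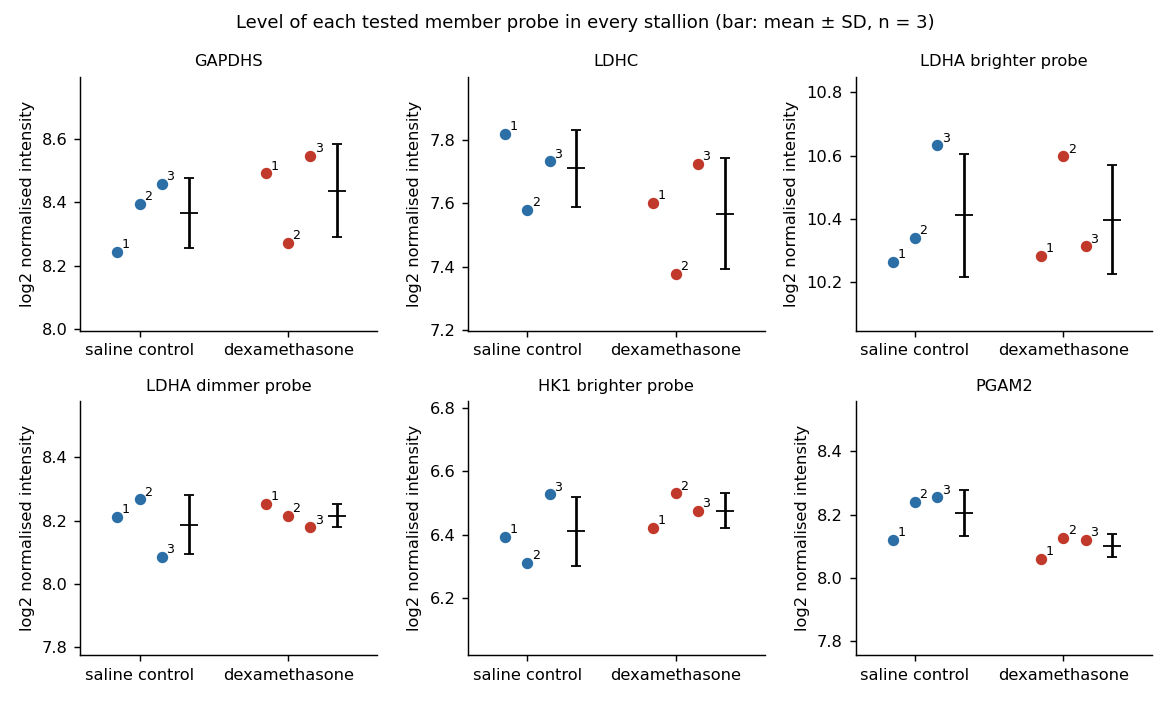
Log2 normalised intensity of the 6 tested member probes in every stallion, in panels of equal log2 span, with saline controls in blue, dexamethasone in red, small figures for the replicate and a bar for the mean ± SD of 3 stallions. In all 6 panels the values of the groups overlap, most narrowly for PGAM2, where control replicate 1 lies at the level of dexamethasone replicates 2 and 3.

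LDHA, the lactate dehydrogenase subunit common in muscle and many other tissues, was read by 2 probes. The brighter probe gave log2 levels of 10.28, 10.60 and 10.31 with dexamethasone and 10.26, 10.34 and 10.63 with saline. Here 1 animal of each group, dexamethasone replicate 2 and control replicate 3, stood apart above the other two of its group. The difference was -0.01 ± 0.12 (log2, SE) with an interval from -0.29 to 0.26. The dimmer probe read 8.25, 8.22 and 8.18 with dexamethasone and 8.21, 8.27 and 8.09 with saline, a difference of 0.03 ± 0.08 (log2, SE) with an interval from -0.16 to 0.22. limma's adjusted p was 0.999 for both probes.

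The 2 LDHA probes did not order the stallions alike. Control replicate 3 was the highest of the 6 on the brighter probe and the lowest on the dimmer probe. Across the 6 stallions, the only relation computed, Pearson's r was -0.62 (exact permutation p = 0.175) and Spearman's rho was -0.26 (exact permutation p = 0.658). Leaving out the 2 stallions farthest from the median of the brighter probe gave r = 0.28 over the 4 left. The sign was thus not stable, and 4 values are too few to read another from. The brighter probe is annotated with NM_005566 and the dimmer one with the expressed sequence BM770718.

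HK1, the hexokinase that phosphorylates glucose in the first step of the route, was near background. Its brighter probe had signal strengths of 1.04, 1.05 and 1.09 in the dexamethasone stallions and 1.05, 0.92 and 1.08 in the controls, so it was above background in 3 of 3 and 2 of 3. The log2 levels were 6.42, 6.53 and 6.48 against 6.39, 6.31 and 6.53, with groups that overlapped. Their difference was 0.07 ± 0.09 (log2, SE), from -0.13 to 0.26, with limma's adjusted p = 0.999. With plain subtraction of the background, which does not compress values near background, the difference was 0.18 ± 0.17 (log2, SE). The dimmer HK1 probe was above background only in dexamethasone replicate 2 and was not tested.

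PGAM2, the phosphoglycerate mutase of muscle that is also made in testis, read 8.06, 8.13 and 8.12 with dexamethasone and 8.12, 8.24 and 8.25 with saline on the log2 scale. The treated values lay close together, and the highest of them, in dexamethasone replicate 2, was slightly above the lowest control value. The means were 8.10 ± 0.04 and 8.20 ± 0.07 (SD, n = 3 each), and the difference was -0.10 ± 0.08 (log2, SE), from -0.29 to 0.08, with limma's adjusted p = 0.999. Before normalisation the spot means of PGAM2 were 266, 241 and 263 in treated and 316, 300.4 and 297 in control stallions, which do not overlap. A lower spot mean without overlap was found for 14.9% of all 24590 probes tested, and a lack of overlap in either direction for 15.4%. PGAM2 was the only 1 of the 6 tested member probes to show it. Because PGAM2 is a muscle gene, striated muscle markers were set beside it. Of 7 such genes 4 were tested, with a median difference of 0.03. The log2 of their summed intensities, in which the brightest probe, that of MYBPC1, weighs most, ran from 9.99 to 10.13 with dexamethasone. With saline it ran from 9.93 to 10.07. The part of other cell types in the PGAM2 values was not tested.

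Across the members, 0 of the 6 tested member probes passed limma's adjusted p of 0.05, where 0.00407% of all tested probes did so, and 0 passed an unadjusted p of 0.05, where 3.29% of all did. The smallest unadjusted p of a member in limma was 0.225, for LDHC. The groups overlapped for all 6, while they did not overlap for 9.27% of all probes. Of the 6 probes 3 lay lower and 3 higher with dexamethasone, where 52.5% of all probes lay lower. The median difference was -0.04 over the 2 tested germ cell probes and 0.01 over the 4 tested other probes, beside -0.01 over all probes tested. Without dexamethasone replicate 2 these medians turned to 0.05 and -0.04, and without dexamethasone replicate 3 the germ cell median was -0.10. Each side held both signs, with GAPDHS above and LDHC below 0 among the germ cell isoforms. The bounds of the 6 intervals lay within 0.39 log2 units of 0, a change of 1.31-fold on the normalised scale. That scale compresses differences, most near background. The interval of LDHC, which set this limit, reached -0.57 with background subtraction and -0.67 with the deposited scaled intensity.

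**Figure D3:**
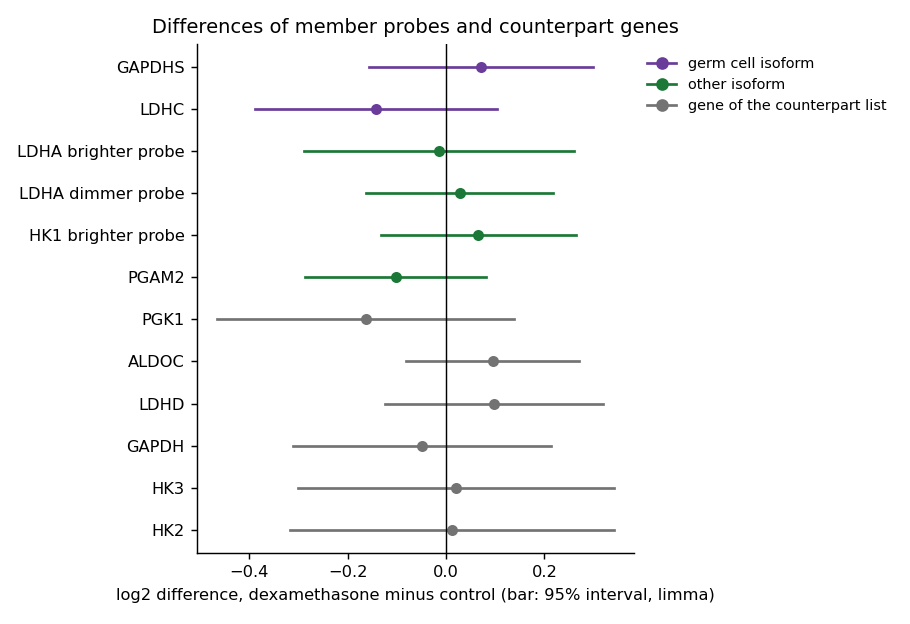
Log2 difference, dexamethasone minus control, with limma's 95% interval as a bar for each tested member probe (purple for germ cell isoforms, green for others) and for the brightest tested probe of 6 genes of the counterpart list (grey). Every interval includes 0, and the lowest bound is that of PGK1.

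The balance of the neighbouring genes LDHC and LDHA was followed within each stallion, as the log2 level of LDHC minus that of the brighter LDHA probe, which removes shifts shared by a whole array. Only its change between groups can be read, not its size. It was -2.68, -3.22 and -2.59 in the dexamethasone stallions and -2.44, -2.76 and -2.90 in the controls. Dexamethasone replicate 2, the stallion with the lowest LDHC, had the lowest balance. The group means were -2.83 ± 0.34 and -2.70 ± 0.23 (SD, n = 3 each), a difference of -0.13 with overlapping groups. With the dimmer LDHA probe the difference was -0.17, again with overlap.

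Slide numbers were inferred from the names of the scanner output and not from the labels. A gap between the numbers was taken as the start of a new run. This gave 2 runs, of 4 arrays and 2 arrays, each with both groups. Within the first run (2 stallions against 2) the log2 differences were 0.06 for GAPDHS, -0.21 for LDHC, 0.14 and -0.0047 for the brighter and dimmer LDHA probe, 0.12 for HK1 and -0.09 for PGAM2. Within the second run (1 against 1) they were 0.09, -0.01, -0.32, 0.09, -0.05 and -0.13 in the same order. GAPDHS, LDHC and PGAM2 had the same sign in both runs, and both LDHA probes and HK1 did not. For LDHC the second run gave only -0.0079, and a sign from 1 stallion against 1 says little.

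Germ cell and somatic markers that share the tissue with these isoforms were read in the same way. Each list was read as the log2 of the summed intensities of its genes, in which the brightest probes weigh most. For 6 spermatocyte genes it ran from 12.84 to 12.97 with dexamethasone and from 12.79 to 13.08 with saline. The brightest of them, PIWIL1, had means of 12.38 and 12.39, so that sum mostly follows PIWIL1. For 7 spermatid genes the log2 sum ran from 11.89 to 12.20 and from 11.84 to 11.91. For 7 Sertoli cell genes it ran from 11.41 to 11.48 and from 11.41 to 11.50. CLDN11, a tight junction gene of Sertoli cells with 1 missing control value, is not in that sum. It differed by 0.48 ± 0.13 (log2, SE), without overlap of the groups, at an unadjusted p of 0.00423 and an adjusted p of 0.999 in limma. The ranges of these 3 sums overlapped, as did the levels of GAPDHS and LDHC, which germ cells make. Of the 7 spermatid genes 4 lay higher and 3 lower. TEKT2 differed by 0.34 ± 0.14 and ZPBP by -0.21 ± 0.08 (log2, SE), at unadjusted p of 0.0359 and 0.0264 in limma. Of the 6 spermatocyte genes 5 lay lower, where 52.5% of all probes did so. Only CCNA1 lay higher, at 0.19 ± 0.09 (log2, SE). The adjusted p of these 3 genes was 0.999 in limma. ZPBP and CCNA1 lacked overlap of the groups, as did 9.27% of all probes. The Leydig cell sum of 3 genes with complete values ran from 12.39 to 12.50 with dexamethasone and from 12.57 to 12.79 with saline. That of 2 peritubular myoid genes ran from 8.70 to 8.79 and from 8.89 to 8.93, in both cases without overlap. Among single tested probes 9.27% lacked overlap, and no such share was computed for sums. The Leydig cell sum holds INSL3, which differed by -1.21 ± 0.23 (log2, SE), with LHCGR and STAR. This INSL3 value, from the brighter of 2 tested probes, had an unadjusted p of 0.000389 and an adjusted p of 0.999 in limma. Computed after the values were seen, the sum of LHCGR and STAR alone ran from 12.23 to 12.28 and from 12.23 to 12.41, with overlap. It mostly follows LHCGR, the brighter of these genes. Of the 6 tested Leydig cell genes 3 lay higher and 3 lower, with a median of -0.04. The myoid sum holds MYLK at -0.22 ± 0.08 and ACTA2 at -0.02 ± 0.10 (log2, SE), the 2 tested of 6 listed genes. It mostly follows MYLK, the brighter of them. The part of these cell types in the member values was not tested.

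The enzymes that share a step with the members were mostly measured. Of 12 genes fixed as counterparts 8 had a probe of their own and 6 were tested. Of these 4 lay higher and 2 lower, where 52.5% of all probes lay lower. Their median difference was 0.02, and 0 passed limma's adjusted p. PGK1, the X-linked somatic counterpart of the undetected PGK2, was above background on all 6 arrays, at 8.63, 9.09 and 8.94 with dexamethasone and 9.03, 9.24 and 8.88 with saline. Its difference was -0.16 ± 0.13 (log2, SE), and within the runs of slides it was -0.28 and 0.07. GAPDH, the somatic counterpart of GAPDHS, read 11.95, 12.35 and 12.29 against 12.15, 12.37 and 12.23, a difference of -0.05 ± 0.12 (log2, SE). Both genes were thus above background throughout, where of their germ cell partners only GAPDHS was.

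ALDOC, an aldolase best known from brain, was the only counterpart whose groups did not overlap, at 7.18, 7.11 and 7.15 with dexamethasone and 7.06, 7.09 and 7.01 with saline. Its difference of 0.09 ± 0.08 (log2, SE) did not pass limma's test (adjusted p = 0.999), and a lack of overlap was shared by 9.27% of all probes. The hexokinases HK2 and HK3 differed by 0.01 ± 0.15 and 0.02 ± 0.14, and LDHD, a mitochondrial enzyme of D-lactate, by 0.10 ± 0.10 over 2 usable treated values (log2, SE). PDHA1, the X-linked counterpart of PDHA2, and PDHB, its partner subunit, were above background on at most 2 arrays, so neither form of the alpha subunit was tested.

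Beyond these steps, further genes of glycolysis, of pyruvate use, of glucose and lactate transport and of gluconeogenesis were tested. With the counterparts 23 of 35 lay higher and 12 lower with dexamethasone, where 52.5% of all probes lay lower. This split turned to 10 higher and 25 lower under median scaling, 17 and 18 with the deposited scaled intensity, and 14 and 18 without dexamethasone replicate 1. At an adjusted p of 0.05 limma called 0 of the 35, and 0 passed the unadjusted p, where 3.29% of all probes did. Their median difference was 0.03. Among 13 other glycolytic enzymes and regulators, PFKL, the liver form of phosphofructokinase, differed by -0.15 ± 0.09 and PFKFB1, which sets the level of a phosphofructokinase activator, by 0.16 ± 0.12 (log2, SE). Among 7 genes of pyruvate use, PC, pyruvate carboxylase, had the largest difference, -0.28 ± 0.14, and PDK3, a kinase that switches pyruvate dehydrogenase off, differed by 0.21 ± 0.15 (log2, SE). The 5 tested transport genes had a median of 0.04, led by SLC16A7, a carrier of lactate and pyruvate, at 0.12 ± 0.10 (log2, SE). The 4 tested genes of gluconeogenesis had a median of 0.04. G6PC1, the glucose-6-phosphatase of liver and kidney, had the smallest p of these at 0.18 ± 0.20 over 2 usable control values, and G6PC3, a widely expressed glucose-6-phosphatase, the next at -0.07 ± 0.11 (log2, SE).

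**Figure D4:**
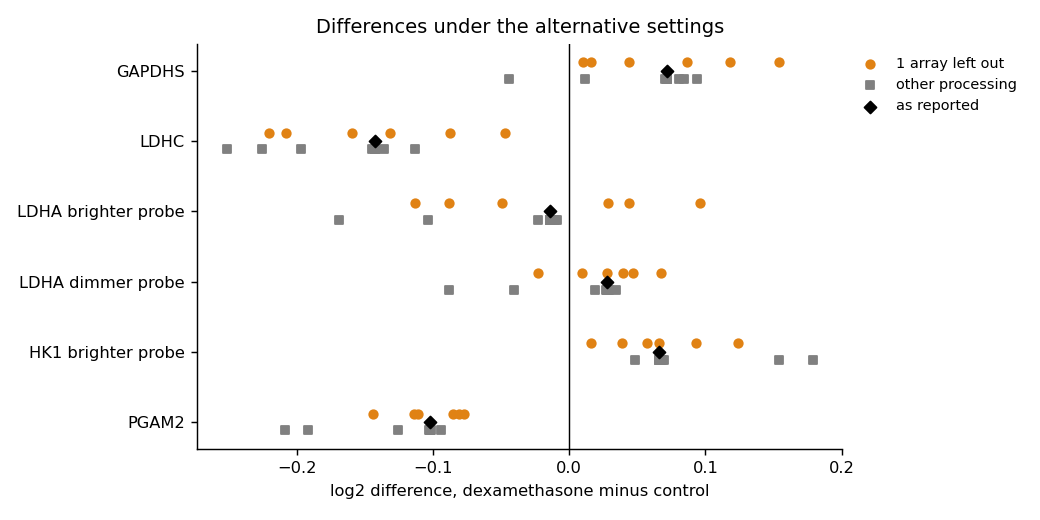
Log2 difference, dexamethasone minus control, of the 6 tested member probes as reported (diamonds), with 1 array left out (orange circles) and under other processing (grey squares). LDHC and PGAM2 stay below 0 and HK1 above 0 in every setting in which they were tested, and GAPDHS and both LDHA probes cross 0.

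Direction depended on the scaling for part of the members. Under median scaling, which moves the median difference of all tested probes to -0.08, GAPDHS differed by -0.04 and the dimmer LDHA probe by -0.09, so that 5 of the 6 probes lay lower. PGAM2 then differed by -0.21 ± 0.09 (log2, SE), at an unadjusted p of 0.0462 and an adjusted p of 0.659 in limma. Under that scaling 7.31% of all probes passed the unadjusted p, and 6.17% of those were higher, so that a lower value was common to nearly all of them. LDHC stayed below 0 in all 16 alternatives, from -0.25 to -0.05, PGAM2 in all 16, from -0.21 to -0.08, and HK1 above 0 in all 15 that tested it, from 0.02 to 0.18. With the inferred slide run fitted as a block LDHC differed by -0.14 ± 0.11 and PGAM2 by -0.10 ± 0.09 (log2, SE).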

How the data were processed

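The members, gene lists and tests were chosen with earlier results of these data known. Per the labels' protocols, Tripure RNA of minced parenchyma was labelled with the CodeLink protocol and read as Alexa-647. The scanner software: not given in the sources used here. Deposited files give linear intensity (spot mean, median background, their difference and a copy scaled by 1 constant per array) and, per the file headers, a signal strength score. The table of the whole series repeats the scaled intensity, linear and not centred beyond that constant, with column medians of 0.945 to 0.967. Spots flagged M (no value) or C, I or P (letters without a stated meaning) were left out as missing, and so were 95 repeated probe names, taken as controls. Intensities were corrected with normexp (offset 50), quantile normalised and taken to log2 (limma 3.58.1, R 4.3.3). Probes above background on at least 3 arrays with at least 2 values per group were tested (24590 of 53423) with lmFit and eBayes, two-sided, and p-values were adjusted by Benjamini-Hochberg over every tested probe. All probes of the members are given. Of each further list up to 4 genes with the smallest p are named, and marker genes only beside a sum they enter or miss. For a gene with several probes the brightest tested one stands. Group labels name the animals' treatment, and replicate numbers only follow sample order. Precision is limited by the number of arrays: for 1 gene, 0.1 is the lowest p an exact two-sided permutation test could reach. Figures used matplotlib 3.10.9.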

Additional observations from a re-analysis of the deposited data

How the results depend on the processing

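All 16 alternatives were planned. No member probe and no pathway gene passed limma's adjusted p in any of them, and member probes above background on 3 or more arrays numbered 6 in all of them. Of 95 member differences, 88 kept their sign. The reversals under processing were GAPDHS at -0.044 and the dimmer LDHA probe at -0.088 with median scaling, and the dimmer LDHA probe at -0.040 with the deposited scaled intensity. Leaving out arrays gave -0.11 to 0.10 for the brighter LDHA probe (0.044 without dexamethasone replicate 1, 0.029 without dexamethasone replicate 3, 0.096 without control replicate 3) and -0.023 to 0.068 for the dimmer one (-0.023 without control replicate 3). With median scaling 1 member probe, PGAM2, passed the unadjusted p. The median of the germ cell isoforms was -0.035 as reported, -0.14 under median scaling and between -0.10 and 0.05 when arrays were left out singly, above 0 only without dexamethasone replicate 2. That of the other isoforms was 0.01 as reported, -0.13 with median scaling and -0.072 with the deposited scaled intensity. It was also below 0 with only probes above background on all 6 arrays (-0.014) and with array weights (-0.002). With arrays left out singly it ran from -0.043 to 0.038. It was then below 0 without dexamethasone replicate 2, control replicate 1 or control replicate 2. Over all probes, 1 passed adjusted p as reported, and 0 with background subtraction, under trend and robust eBayes and with only probes above background on all 6 arrays. Leaving out arrays singly gave 0 to 1, with 0 in the absence of control replicate 1 or of control replicate 3. Unadjusted, 808 passed (44.8% higher), 1798 with median scaling (6.17% higher), 838 with the deposited values (26% higher) and 2073 without a filter on background, which tests more probes. Other causes were not tested. No paired analysis was possible because the labels give the stallions no shared replicate numbers. Signal close to background limits HK1, PGK2, PDHA2 and LDHAL6B.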
